A study of Mus musculus with 2 samples.

Results

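Connexins, the proteins that build gap junctions, were examined in epidermal keratinocytes of K14-caSmad1 mice, whose transgene encodes an always-active version of Smad1, a transcription factor of the BMP pathway. Members were the gene spots named Gja1, Gja3, Gja4, Gja5, Gjb2, Gjb5 or Gjb6 in both scanner files. These 7 genes had 14 probes on 23 spots of each array, out of 41174 probes on 43379 gene spots. Primary epidermal keratinocytes were taken at day 20 after birth from K14-caSmad1 transgenic mice and from wild-type mice, all of the FVB/NJ strain. In both groups total RNA was amplified in 1 round before labelling. The transgene is named for the K14 promoter, which is active in basal keratinocytes and the outer root sheath, so other cells of the preparation need not carry it. Each of 2 two-colour Agilent arrays held K14-caSmad1 RNA in Cy5 and wild-type RNA in Cy3.

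The dyes were not swapped, so a dye effect and a genotype effect cannot be told apart at a single probe. Both arrays lay on 1 slide. The labels call them biological replicates but name no animals, so the spread between them may be technical. The difference in log2 ratio between arrays had an SD of 0.0946 over 12287 single-spot probes, where the noise of repeated spots alone would give 0.106. Over 92 probes with 10 spots each, that SD was 0.0523, where spot noise would give 0.0336. The second SD exceeded spot noise and the first did not, and neither shows whether the arrays hold RNA of different animals. The p-values measure only how closely these arrays repeated. Gene spots well above background numbered 14412 and 15800 in the K14-caSmad1 channel and 15570 and 16144 in the wild-type channel (replicates 1 and 2). The tested Smad1 probe (A_52_P65108) stood at a log2 ratio of 0.27 ± 0.01 (SD, n = 2 arrays), and the labels do not say whether the probe's sequence is part of the transgene. The keratinocyte markers Krt5, Krt14, Trp63 and Itga6 were well above background in both channels on both arrays.

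Gap junctions are channels that join the cytoplasm of neighbouring cells and pass ions and small metabolites. Each is formed by a pair of docked half-channels assembled from connexin subunits, and most tissues use several connexins at once. In skin, Gja1 (Cx43) is the most widespread connexin of the interfollicular epidermis and the hair follicle. Gjb2 (Cx26) and Gjb6 (Cx30) are found in hair follicles and appendages and are scarce in resting interfollicular epidermis. In humans, changes in the genes for both cause hearing loss and skin disease, and the GJB6 disease includes hair loss. Gjb5 (Cx31.1) is a keratinocyte connexin, Gja4 (Cx37) and Gja5 (Cx40) are best known from the lining of blood vessels, and Gja3 (Cx46) is best known from the lens.

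Several members were read by more than 1 probe, and those probes did not always give the same picture. The first 30 of the 60 bases of the probes that decide the comparison are shown, all in lower case, as the scanner files give them, with the position of the whole probe on mouse build mm9.
Gjb2 A_52_P382886, chr14:57717629-57717688, minus strand: caagttgaaccattaccactatgccttatg
Gjb2 A_51_P267622, chr14:57719067-57719126, minus strand: tttacatcatgtacaatggcttcttcatgc
Gjb6 A_52_P482251, chr14:57742226-57742285, minus strand: ttcattggacaatatacattgccgattgct
Gjb6 A_51_P218937, chr14:57743017-57743076, minus strand: aacggtgttcactgtttttatgatttccgc
Gja3 A_52_P17582, chr14:57653539-57653598, minus strand: catgtcagccaactaatcactatgaggatg
Gja3 A_51_P329460, chr14:57654779-57654838, minus strand: gtggtgactctaaacgatgcccaaggcaga
Gja5 A_52_P525317, chr3:96857349-96857408, plus strand: ccgacactggcactaagactctctgttctg
Gja5 A_51_P333216, chr3:96854968-96855027, plus strand: agatgggaagattgtcctccagggcaccct
The longest run of bases shared by probes of different members was 9 of 60, so no probe holds a long stretch of another member's probe. Read 5′ to 3′, 3 probes had a stop codon in each of the 3 frames and so cannot lie wholly in coding sequence: the Gja1 probe, the Gjb5 probe and Gja3 A_52_P17582. The other 11 had at least 1 open frame (1 open frame in 4 probes and 2 in 7), which does not show that they are coding. Exons and untranslated regions of mm9 were not annotated here.

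K14-caSmad1 keratinocytes had several-fold less signal for 4 connexins, Gja3, Gja5, Gjb2 and Gjb6, and about 2-fold less for Gja4, while Gja1 was lower by a smaller amount and Gjb5 was slightly higher. A gene was represented by its brightest tested probe, and was called when each array showed a ratio of 2-fold or more in the same direction. By that rule 5 of the 7 members were lower and 0 were higher, against 1153 of 11748 tested genes lower (9.81%) and 480 higher (4.09%). The median log2 ratio was -3.06 over the 7 members, with Gja3 and Gja5 counted, and -0.03 over all genes tested. limma with Benjamini-Hochberg adjustment at 0.05 placed 6 members lower and 1 higher, but it called 87.1% of all genes. All 7 members passed the filter on dim probes. Gja3 and Gja5 passed it through the wild-type channel alone, which favours a lower ratio, so their calls cannot be read like the others. With both channels required to be well above background on both arrays, 5 members remained and 3 of them were lower, against 856 of 9929 genes (8.62%). Those 5 had log2 ratios of -3.40 (Gjb2), -3.06 (Gjb6), -1.13 (Gja4), -0.75 (Gja1) and 0.24 (Gjb5). The median of all genes under that filter was 0.009.

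**Figure D1:**
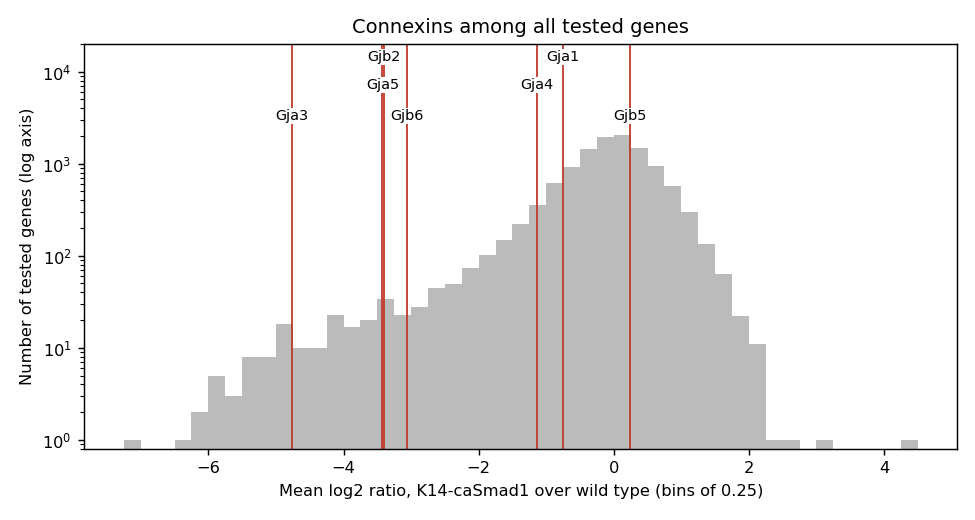
Number of tested genes (log axis) in bins of the mean log2 ratio of K14-caSmad1 over wild type, with red lines at the 7 connexins. Gja3, Gja5, Gjb2 and Gjb6 lie between -4.77 and -3.06, in the sparse left tail, and Gjb5 lies within the main body of genes at 0.24.

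Gjb2, which encodes Cx26, was measured well above background in both channels by probe A_52_P382886. Its normalized intensity was 2423.9 and 6605.7 in K14-caSmad1 keratinocytes and 26530 and 67092.2 in wild-type keratinocytes (replicates 1 and 2). Both channels were brighter on replicate 2. The log2 ratio was -3.45 on replicate 1 and -3.34 on replicate 2, a mean of -3.40 ± 0.08 (SD, n = 2 arrays; limma adjusted p = 2.79e-05 over all tested probes). Gjb2 signal was thus lower in K14-caSmad1 by far more than the gap between arrays.

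The other Gjb2 probe, A_51_P267622, reads the same transcript 1438 bases closer to its start, per the positions in the files. It gave 279.1 and 273.3 in K14-caSmad1 and 588.3 and 572.7 in wild type. It was not well above background in K14-caSmad1 on either array, so the difference has only a lower limit, at least 1.39-fold lower in K14-caSmad1. Its measured mean log2 ratio was -1.07 ± 0.01 (SD, n = 2 arrays), and -3.27 with the scanner's processed signals, where the brighter probe was at -3.48. Both Gjb2 probes were lower in K14-caSmad1, and the lower limit of the dim one does not separate it from the bright one.

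Gjb6, which encodes Cx30 and lies next to Gjb2, was read by 2 probes 791 bases apart on 1 transcript, and both were well above background in both channels. Probe A_52_P482251 gave 1369.7 and 1254.7 in K14-caSmad1 and 11544.7 and 10389.3 in wild type. Its log2 ratio was -3.08 and -3.05, a mean of -3.06 ± 0.02 (SD, n = 2 arrays; limma adjusted p = 2.23e-05). Probe A_51_P218937 gave 931.8 and 809.6 in K14-caSmad1 and 5228.5 and 4732.1 in wild type, a mean log2 ratio of -2.52 ± 0.04 (SD, n = 2 arrays; limma adjusted p = 2.84e-05). Gjb6 was therefore lower at both positions, by 8.35-fold and 5.73-fold.

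Gja3, which encodes Cx46, was seen in wild type alone. Probe A_52_P17582 had intensities of 407.6 and 384.2 in K14-caSmad1 and 11189.6 and 10382.6 in wild type. It was bright in wild type on both arrays and not well above background in K14-caSmad1 on either, so it was at least 25.8-fold lower under the processing used here. The measured log2 ratio was -4.78 and -4.76 (limma adjusted p = 2.23e-05). It was -3.90 with normexp fitted on all spots and -3.92 without background subtraction, so the limit depends on the background correction. The files assign this probe to the cDNA clone AK136383, not to a RefSeq transcript of Gja3.

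The probe on the RefSeq transcript of Gja3, A_51_P329460, lies 1240 bases away and was not well above background in either channel. Its intensities were 205.1 and 224.6 in K14-caSmad1 and 266.6 and 313.3 in wild type. A further probe, A_51_P111704, was as dim, with 250.9 and 249.2 in K14-caSmad1 and 207 and 206.5 in wild type. The lower Gja3 signal thus rests on 1 of 3 probes, and whether the clone's RNA belongs to the Gja3 transcript was not tested.

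Gja5, which encodes Cx40, was read by 4 probes, and 1 of them was well above background. Probe A_52_P525317 gave 363.9 and 333.6 in K14-caSmad1 and 3214.8 and 4353 in wild type. K14-caSmad1 was not well above background on either array, so the probe was at least 8.96-fold lower under the processing used here. With normexp fitted on all spots its measured log2 ratio was -2.42, a smaller difference than that limit. Its log2 ratios were -3.14 and -3.71, the widest gap between arrays among the tested connexin probes (mean -3.42 ± 0.40, SD, n = 2 arrays; limma adjusted p = 0.000187).

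Probe A_51_P333216 reads the same Gja5 transcript 2381 bases closer to its start and was dim in both channels, at 262.1 and 275 in K14-caSmad1 and 281.4 and 294.1 in wild type. The remaining Gja5 probes, A_52_P496163 and A_52_P612636, were assigned to other cDNA clones and lay 22768 and 1358323 bases from the bright probe. Neither was well above background in any channel, and their mean log2 ratios were -0.20 and 0.08. As for Gja3, the lower Gja5 signal was seen by a single probe.

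**Figure D2:**
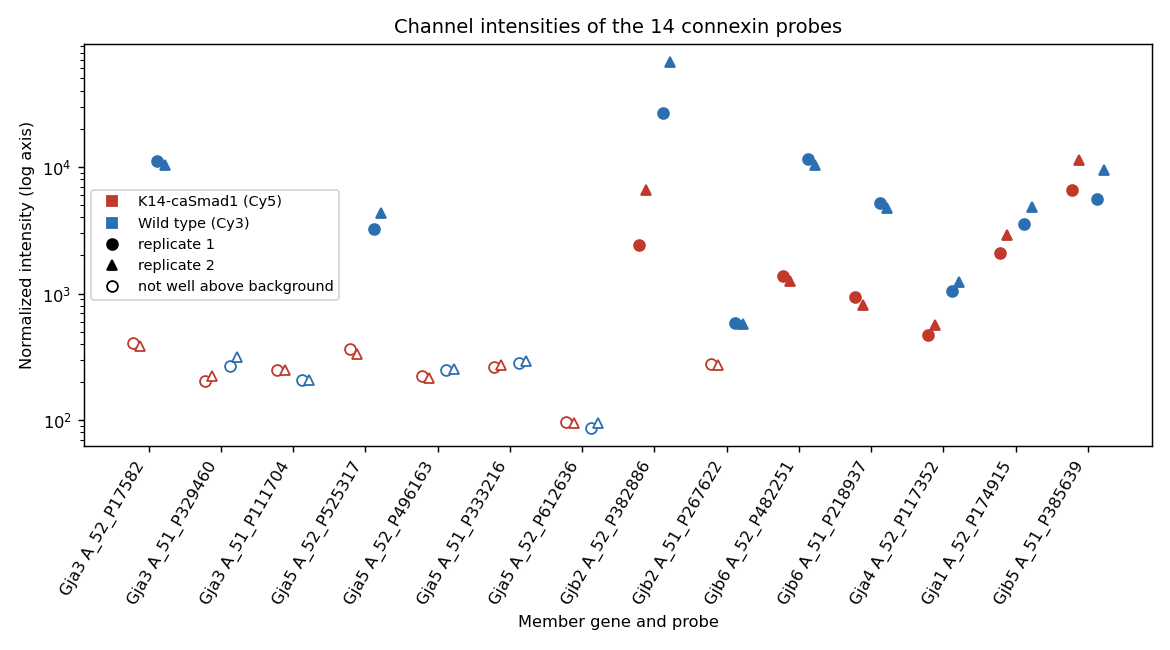
Normalized intensity (log axis) of each of the 14 connexin probes on both arrays, K14-caSmad1 in red and wild type in blue, with open symbols where a channel was not well above background. Gja3 and Gja5 each have 1 probe that is bright in wild type alone, and intensities of different probes are not comparable with each other.

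Gja4, which encodes Cx37, was dimmer but well above background in both channels. Probe A_52_P117352 (chr4:126988848-126988907, minus strand) gave 474.4 and 565.2 in K14-caSmad1 and 1052.1 and 1228.9 in wild type. Its log2 ratio was -1.15 and -1.12, a mean of -1.13 ± 0.02 (SD, n = 2 arrays; limma adjusted p = 6.02e-05). The ratio lay close to the 2-fold limit, and the call was lost with normexp fitted on all spots (-0.68) and without background subtraction (-0.81). With median centring Gja4 was at -0.87, but there the median of all genes was 0.22, against -0.03 here.

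Gja1, which encodes Cx43, was the member with repeated spots, 10 on each array. Probe A_52_P174915 (chr10:56109814-56109873, plus strand) gave 2080.3 and 2891.6 in K14-caSmad1 and 3522.6 and 4815.2 in wild type. Its log2 ratio over 10 spots of replicate 1 ran from -0.95 to -0.66 with an SD of 0.083, and over 9 spots of replicate 2, after 1 outlier spot was left out, the SD was 0.027. The array means were -0.76 and -0.74, a mean of -0.75 ± 0.02 (SD, n = 2 arrays; limma adjusted p = 0.000109). Gja1 was lower on both arrays by 1.68-fold, short of the 2-fold limit, and 15.7% of tested genes had a lower ratio.

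Gjb5, which encodes Cx31.1, had the only positive ratio among the tested connexin probes of the 7 genes. Probe A_51_P385639 (chr4:127032665-127032724, minus strand) gave 6533.4 and 11285 in K14-caSmad1 and 5591.3 and 9465.8 in wild type. Its log2 ratio was 0.22 and 0.25, a mean of 0.24 ± 0.02 (SD, n = 2 arrays; limma adjusted p = 0.00199), or 1.18-fold. Within each array K14-caSmad1 was the brighter channel, but across arrays the intensities of the groups overlapped.

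**Figure D3:**
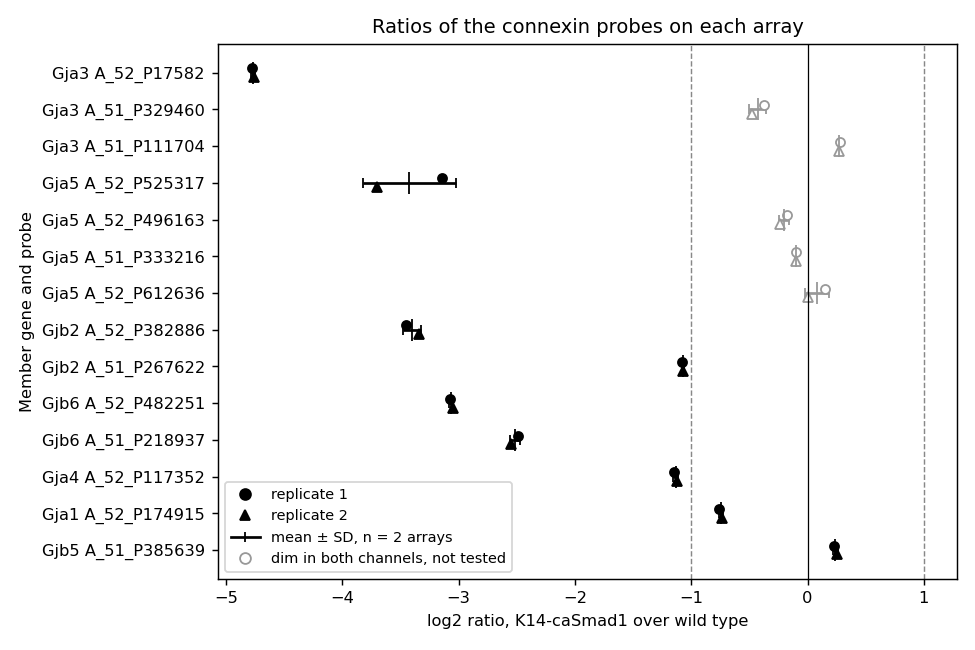
Log2 ratio of K14-caSmad1 over wild type for each connexin probe on replicates 1 and 2, with the mean and SD over the 2 arrays and dashed lines at 2-fold. Black symbols are tested probes and grey open symbols are probes dim in both channels; Gja5 A_52_P525317 shows the widest gap between arrays, -3.14 against -3.71.

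Among the 5 members measured in both channels, the ratio of the brightest tested probe was lowest for Gjb2, then Gjb6, Gja4, Gja1 and Gjb5. Each was apart from its neighbours in that order by more than the gap between arrays. The order of Gjb2 and Gjb6 depends on the probe. With the probes of a gene averaged, Gjb2 was at -2.23 and Gjb6 at -2.79, and the dimmer Gjb2 probe gives only a lower limit. Gja3 and Gja5 have no place in the order, because their ratios are lower limits. With normexp fitted on all spots, Gja5 (-2.42) was less far down than Gjb2 (-3.27).

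The rest of the family was mostly too dim to test. Of 16 other connexin and pannexin genes listed by family name, 15 were on the array and 3 passed the filter, of which 0 were called. Panx1, which forms related channels, had a mean log2 ratio of -0.31 at probe A_51_P135340, and its other probe was dim. By limma at an adjusted p of 0.05, 2 of these 3 genes were lower and 1 was higher, where 87.1% of all genes were called. Gja6, Gja10, Gjb1, Gjc1, Gjc3, Gjd2, Gjd3, Gjd4, Gje1 and Panx3 were not well above background in either channel on either array.

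The members lie in 2 clusters and 2 single sites. On chromosome 14, Gja3, Gjb2 and Gjb6 sit together, with the tested Gja3 and Gjb6 probes 64.1 and 24.6 kb to either side of the Gjb2 probe, and all 3 were lower. Of the other genes within 500000 bases of their probes, 8 were tested and 0 were called, with mean log2 ratios from -0.77 (Cryl1) to 0.67 (Zmym2). On chromosome 4, the probes of Gja4 and Gjb5 lie 43.8 kb apart, with Gja4 at -1.13 and Gjb5 at 0.24. Of the 8 tested genes around them, 1 was called, Sfpq, at 1.05. Around Gja1 on chromosome 10 only Tbc1d32 was tested, at 0.14. Around the Gja5 probes on chromosome 3, 16 genes were tested, 0 were lower and 1 was higher, Phgdh at 1.80. Phgdh, Sec22b and Notch2 were included only through the dim probe A_52_P612636, which lies 1358323 bases from the bright Gja5 probe.

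**Figure D4:**
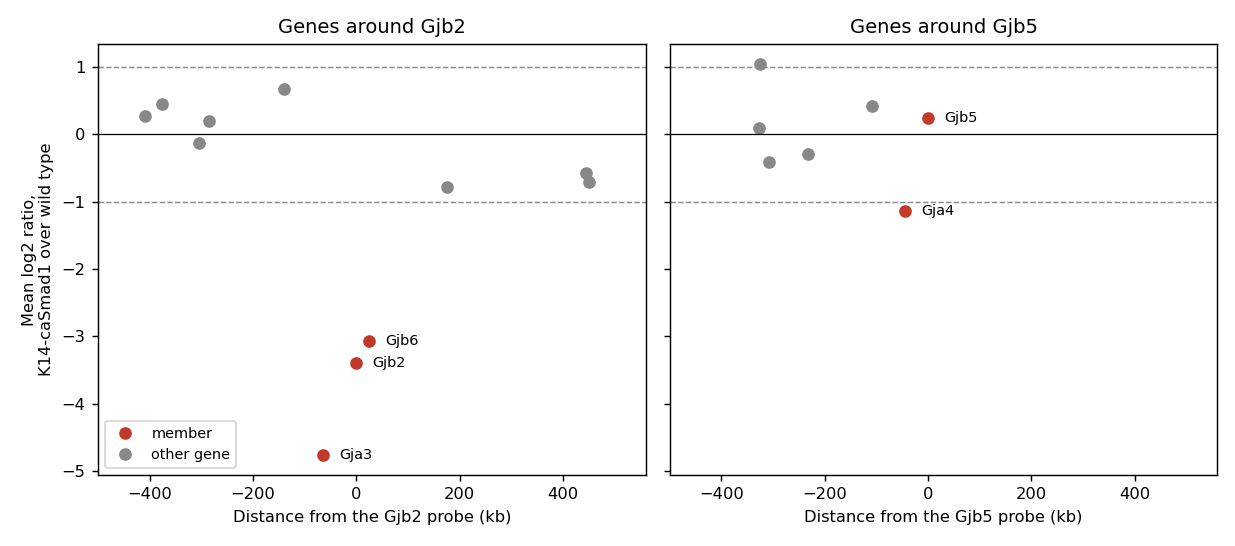
Mean log2 ratio of the members and of tested genes outside the connexin family, K14-caSmad1 over wild type, against the distance of their brightest probe from the Gjb2 probe (left) and the Gjb5 probe (right). Gja3, Gjb2 and Gjb6 lie between -4.77 and -3.06 while the other genes around them lie between -0.77 and 0.67, and Gja4 and Gjb5 lie on either side of 0 at -1.13 and 0.24.

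The 250 bases before the start of Gjb2, Gjb6 and Gjb5 are shown because Gjb2 and Gjb6 are neighbours that were lower together and Gjb5 was not lower. They are from RefSeq on build GRCm38.p6, which is not the build of the probe positions. Capitals mark matches to the searched motifs on either strand.
Gjb2, chr14:57104703-57104952, minus strand: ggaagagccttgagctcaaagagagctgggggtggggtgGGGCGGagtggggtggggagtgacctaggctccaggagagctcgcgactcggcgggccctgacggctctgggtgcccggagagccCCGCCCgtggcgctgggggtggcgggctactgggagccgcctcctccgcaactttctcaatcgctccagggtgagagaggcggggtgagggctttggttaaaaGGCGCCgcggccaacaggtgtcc
Gjb6, chr14:57133612-57133861, minus strand: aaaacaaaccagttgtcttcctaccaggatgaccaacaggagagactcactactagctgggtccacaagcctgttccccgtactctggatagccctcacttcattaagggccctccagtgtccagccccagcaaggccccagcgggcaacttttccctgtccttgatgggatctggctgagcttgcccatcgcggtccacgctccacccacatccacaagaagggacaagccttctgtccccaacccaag
Gjb5, chr4:127358165-127358414, minus strand: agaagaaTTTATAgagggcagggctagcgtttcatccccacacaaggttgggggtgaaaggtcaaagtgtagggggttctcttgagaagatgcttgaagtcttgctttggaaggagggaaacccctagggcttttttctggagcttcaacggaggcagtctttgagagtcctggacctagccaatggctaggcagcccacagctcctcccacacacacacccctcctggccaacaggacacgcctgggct
The motifs searched on both strands were the palindromic Smad element GTCTAGAC, the GC-rich element GGCGCC that Smad1 and Smad5 can bind, the AP-1 element TGANTCA, the GC box GGGCGG and the TATA box TATAAA. Gjb2 held GC boxes starting 211 and 126 bases before the start and 1 GGCGCC element at 23 bases. Gjb5 held 1 TATA box at 243 bases. In Gjb6 none of the 5 letter strings was present in this window.

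All 7 members had a promoter entry, 8 in all because Gja3 has 2. GGCGCC was in 3 of those 8, both Gja3 starts and Gjb2, against 9.6% of 32851 promoters. The GC box was in 3 of 8 against 32.7%, the TATA box in 2 of 8 against 12.4%, the AP-1 element in 1 of 8 against 6.7%, and GTCTAGAC in 0 of 8 against 0.2%. GC content was 76.0% and 62.8% for the 2 Gja3 starts, 69.2% for Gjb2, 56.8% for Gjb6 and 54.4% for Gjb5, against a median of 52.4%. GGCGCC holds only G and C, and the part of GC content in its share was not tested. A match is a string of letters and no evidence of binding.

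Listed markers of the hair shaft and root sheath were lower, as were most of the connexins. Of 17 tested genes of the hair shaft and root sheath, 17 were lower and 0 higher, with a median log2 ratio of -3.66. Their summed intensity was 154354 and 153931 in K14-caSmad1 and 2331428 and 2457551 in wild type, and all 17 were well above background in both channels. Krt33a, a hair shaft keratin, stood at -5.27 and Krt28, an inner root sheath keratin, at -4.97. Krt14, whose promoter is active in basal keratinocytes and the outer root sheath, was counted with the basal genes and stood at 1.07. Its ratio does not tell those cells apart. In such a preparation, fewer cells of a type and less RNA per cell cannot be told apart, and the part of hair follicle cells in the lower Gjb2, Gjb6, Gja3 and Gja5 was not tested.

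Most basal and suprabasal genes were not lower at 2-fold. Of 10 tested basal keratinocyte genes, 0 were lower and 4 were higher, with a median log2 ratio of 0.81, and Krt5 stood at 1.70. Of 14 suprabasal genes, 1 was lower, Tgm3, and 4 were higher, with Krt2 at 4.26 and Krt1 at 1.80. Tgm3 was not well above background in K14-caSmad1 on either array, so it was at least 2.39-fold lower. Of 9 stress-associated genes, 3 were lower, S100a9, S100a8 and Sprr1b, and 2 were higher, among them Krt6b at 1.59. In K14-caSmad1, S100a9 was well above background on 1 array and S100a8 on neither, so S100a8 was at least 4.73-fold lower.

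Markers of blood vessel lining were at or near the detection limit. Of 15 endothelial genes, 0 were well above background in K14-caSmad1 on both arrays and 4 were so in wild type. Those 4, Flt1, Vwf, Esam and Egfl7, had measured log2 ratios from -0.95 to -0.24, and 0 were called at 2-fold. Flt1, Vwf and Esam were not well above background in K14-caSmad1 on either array. They were thus at least 1.59-fold, 1.84-fold and 1.28-fold lower, limits that cannot show a change of less than 2-fold. limma at an adjusted p of 0.05 placed all 4 lower, where it called 87.1% of all genes in either direction. The filter favours a lower ratio for these 4, since they passed it through wild type alone. Pecam1, Cdh5, Kdr, Tek, Tie1, Emcn, Cldn5, Eng, Sox17 and Sox18 were not well above background in either channel. The summed intensity of the list was 7820 and 7750 in K14-caSmad1 and 9079 and 9022 in wild type. The part of vessel cells in the lower Gja4 and Gja5 was not tested.

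Genes of other cell types were counted in the same way. Of 6 tested smooth muscle and pericyte genes 2 were lower, Acta2 at least 3.20-fold and Tagln at -1.78. Their summed intensity was 6488 and 6474 in K14-caSmad1 and 8906 and 8645 in wild type. Of 4 tested fibroblast genes 3 were lower, Col3a1, Col1a1 and Col1a2. All 4 passed the filter through wild type alone, which favours that direction. The sums of the fibroblast list were 4085 and 4090 in K14-caSmad1 and 6756 and 6723 in wild type. Of 5 tested melanocyte genes 2 were lower by measured ratio, Mitf and Pmel, and Mitf, not well above background in K14-caSmad1, was at least 1.74-fold lower, with sums of 5106 and 4556 in K14-caSmad1 and 9068 and 8711 in wild type. Of 5 tested leukocyte genes 1 was lower, Cd68 at least 2.03-fold, with sums of 24831 and 34773 in K14-caSmad1 and 19157 and 28688 in wild type. Their part in the connexin results was not tested.

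Genes for proteins that bind connexins or act on gap junctions were mostly within 2-fold. Of 17 tested partners, 0 were lower and 1 was higher, with a median log2 ratio of -0.17. By limma at an adjusted p of 0.05, 10 were lower and 5 higher, where 87.1% of all genes were called. The one called was Cav1, a caveolin of membrane pits, at 1.76. Tubb5, a tubulin, was at 0.64, short of 2-fold. Cdh1, the epithelial cadherin, had a measured ratio of -0.89. It was not well above background in K14-caSmad1 on either array, so it was at least 1.33-fold lower.

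The genes nearest to each member measured in both channels were found by the largest difference in log2 ratio over the 2 arrays, where a small value means a similar pair of ratios. Nearest to Gjb2 were Slc25a37, Apod and Fscn3, and nearest to Gjb6 were Sccpdh, Samd8 and Pik3r3, all within 0.06. None is given for Gja3 and Gja5, whose ratios are lower limits. Gja4 had 165 genes within 0.1, Nup50, Cdc42ep1 and Rgma first. Gja1 had 405, Rpl10a, Paqr6 and Wnk2 first, and Gjb5 had 1005, Gpd1l, Plagl2 and AK050835 first. The measure rests on 2 arrays that share both RNAs of the design, and genes near the middle of the distribution have many close neighbours.

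Across the other processing settings the direction of each tested connexin probe was kept, and the size varied most for the probes that were dim in K14-caSmad1. Gja3 ran from -6.70 to -3.90, Gja5 from -5.60 to -2.42 and the dimmer Gjb2 probe from -3.27 to -0.60. The bright Gjb2 probe ran from -3.48 to -2.23, with -2.23 where both Gjb2 probes were averaged. Gjb6 A_52_P482251 ran from -3.32 to -2.73, Gja1 from -0.76 to -0.44 and Gjb5 from 0.22 to 0.52.

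**Figure D5:**
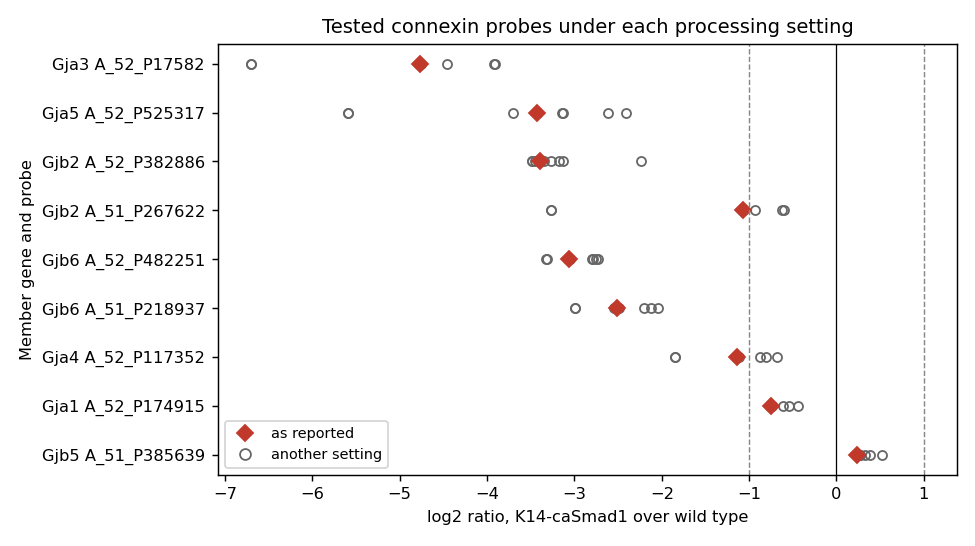
Log2 ratio of K14-caSmad1 over wild type for the 9 tested connexin probes, as reported (red diamonds) and under each other setting (open circles), with dashed lines at 2-fold. Gja3 and Gja5 spread the most, and Gja4 and the dimmer Gjb2 probe fall on both sides of -1.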

How the data were processed

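RNA of K14-caSmad1 (Cy5) and wild-type (Cy3) mouse epidermal keratinocytes was compared on 2 arrays. The deposited scanner files hold spot and background intensity from Agilent Feature Extraction 10.5.1.1, per the file headers. The deposited table holds a log10 ratio of Cy5 over Cy3, which equals the log10 ratio of the authors' processed intensities within 0.00397. From the deposited mean and background intensities, log2 ratios were computed with limma 3.58.1 in R 4.3.3: normexp (offset 50) without the 36 spots of replicate 1 flagged for a non-uniform local background, then loess (span 0.3) with control spots at weight 0. Outlier spots were left out and repeated spots averaged. Channel intensities and lower limits ("at least") come from loess and Aquantile values; where a channel was not well above background on either array, the limit uses the higher of the probe's value and the array's lowest signal well above background. A probe was tested when well above background on both arrays in either channel (15105 probes, 11748 genes). The offset shrinks the ratios of dim probes.

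Each mean ratio was tested against 0 with lmFit and eBayes. The normalization and the 2-fold call were also run on simulated data, and the p-values were not assessed there. Adjusted p-values of probes run over all tested probes. With 2 arrays, their number limits the precision. The genes named are all member probes, other connexins, up to 4 genes per list with the largest ratios, the 3 nearest genes by ratio and tested genes within 500000 bases. Some of these are not reported here. Members and lists were chosen with earlier results of these data known. Alternatives varied the background correction, the source of the values, centring, the detection filter, the probe that stands for a gene, the variance model and the arrays.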

Additional observations from a re-analysis of the deposited data

How the results depend on the processing

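No paired analysis was possible because both RNAs lie on each array and the ratios form 1 group. Each tested connexin probe kept its direction in every setting that gave it a value, and other connexins and pannexins called stayed at 0. Gja4 was no longer past 2-fold with normexp on all spots (-0.68), without background subtraction (-0.81) and with median centring (-0.87). The dimmer Gjb2 probe was not past it in the same settings (-0.60, -0.62 and -0.94). The members lower numbered 4 of 7 in those 3 settings, where 4.02%, 6.53% and 6.9% of all genes were lower. They were 3 of 5 with both channels above background (8.62% of all genes) and 5 of 7 without replicate 1 (10.4%) or without replicate 2 (10.3%). Genes called in all were 776 with normexp on all spots, 1190 without background subtraction, 1314 with both channels above background, 1768 and 1746 without replicates 1 and 2, 3131 with the scanner's processed signals and 3127 with the deposited table, against 1633. The scanner's signals gave 1875 lower and 1256 higher, and median centring 811 lower and 1110 higher, against 1153 and 480. Median centring moved the median log2 ratio of all genes to 0.22, from -0.03, and Gja4 there is to be read against that shift. The causes were not tested. Signal over background limits Gja3 and Gja5 to lower bounds, and without a dye swap or separate animals in the labels, neither dye bias nor animal spread can be judged.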
